A study of Mus musculus with 8 samples.

Results

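The genes described here encode 37 antiviral effectors and sensors of foreign nucleic acid, given by name, out of 46472 genes in the deposited tables once numbered copies of a gene were summed. By role they were 4 genes of the ISG15 system, 3 of the IFIT family, 4 of the OAS family, 2 of the Mx family, 3 of the IFITM family, 12 other effectors, 6 nucleic acid sensors and 3 genes of ADP-ribosylation. All 37 had enough reads to be tested. Messenger RNA had been profiled in haematopoietic stem cells (HSCs), the marrow cells that give rise to all blood lineages, taken from bone marrow of the inbred mouse strain C57BL/6. There were 4 libraries from mice at 4 weeks of age and 4 from neonates at postnatal day 5 (P5). No genotype or treatment separates the groups, which are labelled by age. Sex was not balanced between them. Reads of Y-linked genes, which come from male cells, were present in every 4-week library but numbered 2 and 0 in P5 replicates 1 and 3. At both ages HSCs were sorted as CD150+ CD48- EPCR+ Lineage- cells, with 100 cells to a library. Separate animals are not stated for the libraries of an age, so p-values here reflect only how far these samples vary, which could be technical variation. The comparison asks how antiviral transcripts of HSCs differ between the juvenile and the neonatal age.

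Type I interferon is a cytokine that cells release when they detect virus. It acts through a receptor and STAT transcription factors, which bind the interferon-stimulated response element (ISRE) near the genes they switch on. Most genes described here are known targets of that pathway, and many are also transcribed at a basal level without infection. HSCs are known for expressing some antiviral genes constitutively, among them members of the IFITM family.

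Libraries held 5775130 to 7212446 exon reads at 4 weeks and 6142760 to 7470777 at P5. Introns, counted together with all reads of genes that list no exons, took 71.2 to 72.5% of gene reads at 4 weeks and 66.8 to 71.7% at P5. Y-linked reads numbered 1532 to 2214 in the 4-week libraries, 2293 and 2062 in P5 replicates 2 and 4, and 2 and 0 in P5 replicates 1 and 3. The HSC label was checked against the gate genes. Slamf1 (CD150) averaged 36.6 ± 4.40 CPM (normalised exon reads, scaled by TMM library size) at 4 weeks and 33.8 ± 4.69 at P5, and Procr (EPCR) 57.1 ± 8.03 and 55.0 ± 8.0, while Cd48 averaged 5.10 ± 2.66 and 4.98 ± 3.57 (SD, n = 4 each). Hlf, the most abundant HSC gene listed, averaged 1252 ± 116 CPM at 4 weeks and 1404 ± 92.7 at P5. Ly6a, which encodes the HSC surface antigen Sca-1, averaged 85.9 ± 17.8 CPM at 4 weeks and 29.6 ± 4.00 at P5 and was 2.90-fold higher at 4 weeks (edgeR quasi-likelihood test, adjusted p = 1.49e-05). Of the 9 HSC genes listed, Ly6a alone was higher at 4 weeks, and 3 were lower: Fgd5 1.52-fold (adjusted p = 7.74e-05), Mllt3 1.34-fold (adjusted p = 0.00729) and Mecom 1.28-fold (adjusted p = 0.0106). In bulk libraries, fewer cells of a type and less RNA per cell cannot be told apart.

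At 4 weeks, 24 of the 35 genes with an mRNA model were higher than at P5 (edgeR's quasi-likelihood fit over 12235 genes, with a Benjamini-Hochberg threshold of 0.05), against 8.55% of all genes tested. None was lower, against 7.99% of all genes. None was lower at an unadjusted p under 0.05 either, and none was lower by DESeq2 or limma-voom. Mx1, counted by gene reads, was also higher, which makes 25 of 37. The log2 fold change of 4 weeks over P5 was positive for 35 of 37 genes, with a median of 0.48 (1.39-fold), against a median of 0.0042 and a positive share of 50.5% over all genes with an mRNA model. Folds of the called genes ran from 1.22 for Dtx3l to 10.4 for Zbp1. In 19 of the 35 genes every 4-week library lay above every P5 library, against 11.2% of all genes, and in none did every 4-week library lie below, against 10.0% of all genes. Of the 35, 9 were both called and at least 2-fold higher, against 2.85% of all genes. The genes were chosen with earlier results of these data known, so these shares describe the list and are not an independent test.

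**Figure D1:**
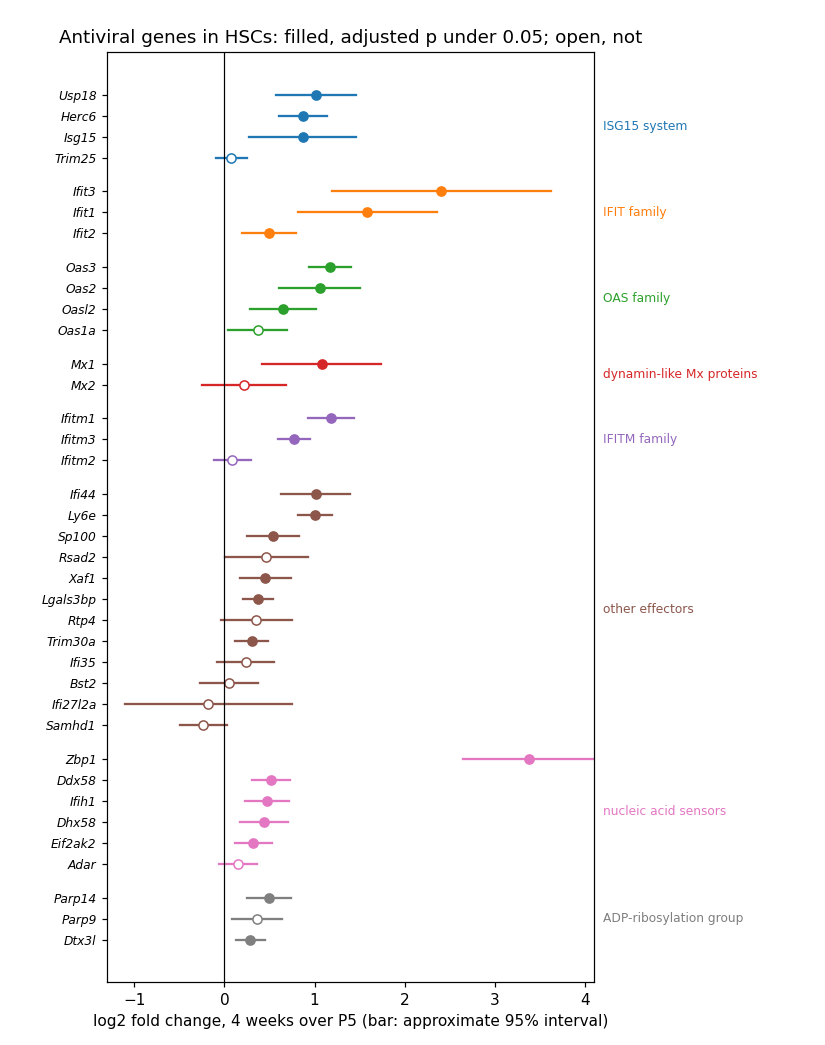
Log2 fold change of 4 weeks over P5 (x axis) for the 37 genes (y axis), grouped and coloured by role. Points are edgeR estimates, bars approximate 95% intervals, filled points have an adjusted p under 0.05 and open points do not; 25 points are filled, all to the right of 0, and Zbp1 lies farthest right at 3.38.

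The genes were spread over a wide range of levels, compared here as mean CPM per kb of exon. The IFITM genes stood at the top, with Ifitm3 at 812 at 4 weeks and 476 at P5, Ifitm1 at 629.5 and 276, and Ifitm2 at 265 and 250. Next came Ly6e, at 138 CPM per kb at 4 weeks and 68.3 at P5, and Lgals3bp, at 119 and 92.1. At the bottom at 4 weeks stood Ifit1 with 3.11 CPM per kb, against 1.03 at P5, Ifi27l2a with 3.56, against 4.04 at P5, and Ifit3 with 4.15, against 0.794 at P5. Isg15 was also low, at 10.1 CPM per kb at 4 weeks and 5.53 at P5. Thus Isg15, Ifit1 and Ifit3, textbook targets of interferon, were among the scarcest of these transcripts in HSCs of both ages, and the IFITM transcripts the most plentiful.

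**Figure D2:**
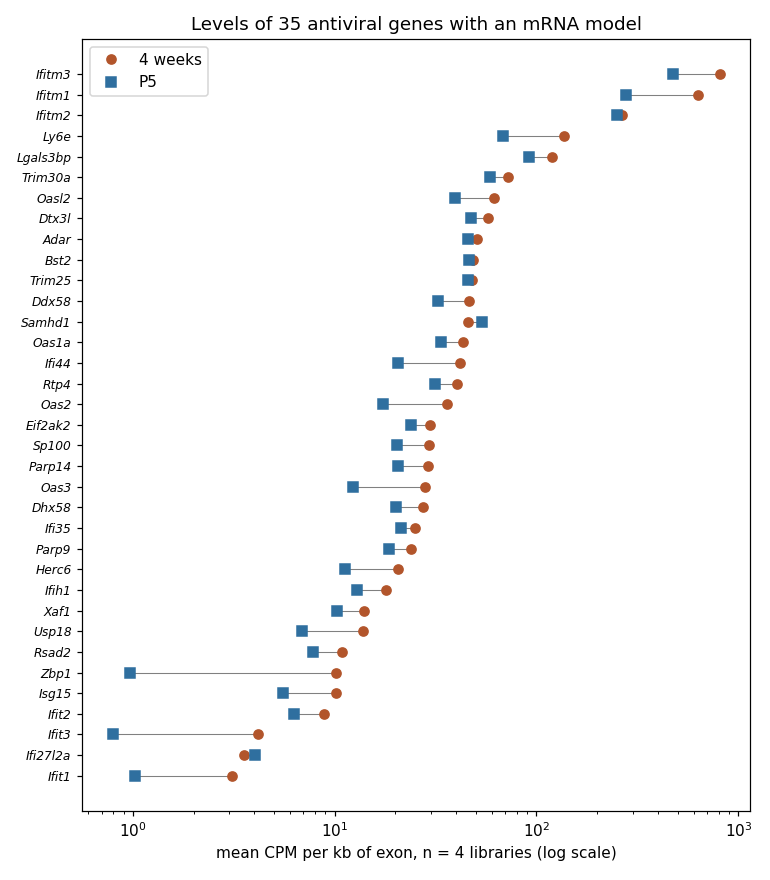
Mean CPM per kb of exon (x axis, log scale) of the 35 genes with an mRNA model (y axis, ordered by the 4-week level); circles are 4 weeks, squares are P5, n = 4 libraries each, and grey lines join the ages. Ifitm3, Ifitm1 and Ifitm2 lead at both ages, and the widest gap is that of Zbp1, at 10.1 at 4 weeks and 0.965 at P5.

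Promoter sequences were read to see which of these genes carry the letters of an ISRE close to a start. RefSeq windows on GRCm38.p6, reaching from 250 bases before a transcript start to 50 bases from it on, were at hand for 26 of the 37 genes. The ISRE was searched on both strands as GAAA, any 2 bases and GAAA again. It was found in 13 of 26 genes, against 3.99% of all 27025 genes with a window. A longer form that goes on with CT, each match of which also holds the shorter one, was found in 7 of 26 genes, against 0.303% of all genes. TTCNNNGAA, the GAS element bound by STAT dimers, was found in 8 of 26, against 9.55% of all genes. Among the 18 genes with a window that were higher at 4 weeks, 9 held the ISRE letters, and among the 8 not called, 4 did. For the longer form these counts were 5 of 18 and 2 of 8, and for the GAS letters 3 of 18 and 5 of 8. A match is a description of letters and not a bound site. Because most genes described here are known interferon targets, an ISRE share above that of all genes is not an independent result. In the windows printed below, all 5′ to 3′ along the transcript, capitals mark the ISRE letters or their reverse complement, and positions count from the start used by that window. That start lies inside the RefSeq gene interval for Ifit3, Oas3, Ifitm1 and Ifitm2.

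ISG15 is a ubiquitin-like protein that is joined to other proteins during antiviral responses, and 3 of the 4 genes of its system were higher at 4 weeks. Herc6, the mouse ligase that attaches ISG15, had 128, 96.3, 104 and 107 CPM in the 4-week libraries, against 51.5, 73.1, 54.5 and 58.7 CPM in the P5 libraries. Usp18, the protease that removes ISG15 and also restrains the interferon receptor, had 23.4, 21.0, 25.7 and 28.3 CPM at 4 weeks, against 8.04, 14.0, 16.3 and 10.6 CPM at P5. For both genes all 4-week libraries lay above all P5 libraries. Herc6 was higher by 0.87 on the log2 scale (SE 0.123, adjusted p = 0.000314), and Usp18 by 1.02 (SE 0.207, adjusted p = 0.00429). Isg15 itself had 6.20 to 9.42 CPM at 4 weeks, against 3.39 to 5.44 CPM at P5, with no overlap, a log2 fold change of 0.87 (SE 0.277) and an adjusted p of 0.0479. That call was lost without any single one of 4-week replicates 1, 3 and 4 and P5 replicates 1, 3 and 4, with an adjusted p of up to 0.136. Trim25, a ubiquitin ligase that activates RIG-I, averaged 267 ± 23.9 CPM at 4 weeks and 253 ± 9.00 at P5 (SD, n = 4 each), with an approximate 95% interval of -0.09 to 0.25 on the log2 scale; it is listed in 2 copies, and 33.2% of its exon reads mapped uniquely. Outside the 37 genes and picked after its values were seen, Uba7, the enzyme that activates ISG15, averaged 526 ± 43.4 CPM at 4 weeks and 371 ± 53.7 at P5 and was 1.42-fold higher (adjusted p = 0.00451). Isg15's window (chr4:156200769-156201068, minus strand) is shown because 3 overlapping matches, beginning 78, 72 and 66 bases before the start, merge into a single block.
Isg15: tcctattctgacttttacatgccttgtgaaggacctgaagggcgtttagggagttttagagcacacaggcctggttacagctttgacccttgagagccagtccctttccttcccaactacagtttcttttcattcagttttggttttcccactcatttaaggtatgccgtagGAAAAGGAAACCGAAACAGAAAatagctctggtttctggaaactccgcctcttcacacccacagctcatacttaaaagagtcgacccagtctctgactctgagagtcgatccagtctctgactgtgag

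The IFIT proteins bind viral RNA and block its translation, and all 3 of these neighbouring genes on chromosome 19 were higher at 4 weeks. Ifit1, which recognises RNA caps that lack a methyl mark, had 8.69, 9.995, 9.25 and 4.85 CPM at 4 weeks, against 3.14, 1.55, 4.04 and 2.12 CPM at P5, without overlap. Its log2 fold change was 1.59 (SE 0.359, adjusted p = 0.00802), but 24.6% of its exon reads mapped uniquely and it had too few unique reads to be tested on those alone. Ifit3, a partner of IFIT1 in complexes, had 16.1, 3.10, 8.41 and 16.5 CPM at 4 weeks, against 0.545, 4.04, 2.59 and 1.27 CPM at P5. Here 4-week replicate 2 lay below P5 replicate 2, so the ages overlapped, and the spread among 4-week libraries was wide. Ifit3's log2 fold change was 2.41 (SE 0.564, adjusted p = 0.0098), and 2.04 on uniquely mapped reads (adjusted p = 0.0259). Ifit2, whose human counterpart binds AU-rich double-stranded RNA, averaged 39.1 ± 5.42 CPM at 4 weeks and 27.7 ± 3.76 at P5 (SD, n = 4 each), without overlap, and was 1.41-fold higher (adjusted p = 0.0260). Its call was lost without 4-week replicate 2 or without P5 replicate 1, 2 or 4, with an adjusted p of up to 0.0780. The windows of Ifit1 (chr19:34640639-34640938, plus strand) and Ifit3 (chr19:34583279-34583578, plus strand) are shown because each has a pair of matches, all on the opposite strand, beginning 104 and 85 bases before the start in Ifit1 and 156 and 122 bases before it in Ifit3.
Ifit1: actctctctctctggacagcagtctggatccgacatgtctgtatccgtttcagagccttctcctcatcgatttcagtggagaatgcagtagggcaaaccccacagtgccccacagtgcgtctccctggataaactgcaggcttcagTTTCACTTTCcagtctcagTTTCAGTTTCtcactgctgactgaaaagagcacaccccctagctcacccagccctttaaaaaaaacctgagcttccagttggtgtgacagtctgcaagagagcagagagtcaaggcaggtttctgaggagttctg
Ifit3: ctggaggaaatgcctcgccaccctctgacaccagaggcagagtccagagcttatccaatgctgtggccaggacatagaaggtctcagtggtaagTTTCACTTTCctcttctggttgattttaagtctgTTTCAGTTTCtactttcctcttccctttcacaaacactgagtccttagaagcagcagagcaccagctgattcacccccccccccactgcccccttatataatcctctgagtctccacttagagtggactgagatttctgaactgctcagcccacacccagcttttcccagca

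OAS enzymes make oligoadenylates, a signal against viral RNA, on sensing double-stranded RNA, and 3 of the 4 OAS genes were higher at 4 weeks. Oas3, a long form of the enzyme, had 143, 119, 125 and 139 CPM at 4 weeks, against 48.4, 59.1, 59.8 and 66.6 CPM at P5. Oas2 had 143, 133, 134 and 164 CPM at 4 weeks, against 37.5, 99.9, 76.3 and 63.2 CPM at P5. Neither gene's ages overlapped, and P5 replicate 2 was the highest P5 library for Oas2. The log2 fold change was 1.17 for Oas3 (SE 0.106, adjusted p = 8.06e-06) and 1.06 for Oas2 (SE 0.21, adjusted p = 0.00367). Oasl2, an OAS-like protein with ubiquitin-like domains, averaged 193 ± 27.7 CPM at 4 weeks and 123 ± 37.9 at P5 (SD, n = 4 each). Its ages overlapped through P5 replicate 2 at 178 CPM, and it was 1.57-fold higher (adjusted p = 0.0189), a call lost without 4-week replicate 4 or without P5 replicate 1, 3 or 4 (adjusted p of up to 0.0617). Oas1a, a short form, averaged 84.3 ± 9.86 CPM at 4 weeks and 65.3 ± 16.9 at P5, and its log2 fold change of 0.37 (approximate 95% interval 0.04 to 0.70) missed the threshold (adjusted p = 0.124). It passed without P5 replicate 2, with a log2 fold change of 0.56 and an adjusted p of 0.00431. Oas1a, Oas2 and Oas3 lie in the same region of chromosome 5, at chr5:120896256-120907544, chr5:120730333-120749886 and chr5:120753098-120777684. Oas3's window (chr5:120777610-120777909, minus strand) is shown for its single match, which begins 75 bases before the start.
Oas3: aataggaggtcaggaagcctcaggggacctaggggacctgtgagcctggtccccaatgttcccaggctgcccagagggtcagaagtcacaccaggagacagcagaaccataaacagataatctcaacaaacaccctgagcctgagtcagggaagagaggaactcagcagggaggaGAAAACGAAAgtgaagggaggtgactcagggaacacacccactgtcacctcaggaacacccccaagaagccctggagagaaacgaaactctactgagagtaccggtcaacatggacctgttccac

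Mx proteins are dynamin-like GTPases that trap viral nucleocapsids, and C57BL/6 mice are known to carry defective alleles of both genes. Their rows list no exons, so reads over the whole gene were used and tested among 2815 genes of that kind, of which 4.8% were higher and 4.72% lower at 4 weeks. Mx1 had 136, 157, 167 and 222 CPM at 4 weeks, against 119, 42.3, 108 and 54.4 CPM at P5. Mx2 had 175, 149, 132 and 170.3 CPM at 4 weeks, against 178, 160.1, 112 and 88.6 CPM at P5. The ages were apart for Mx1, as for 9.09% of such genes, and overlapped for Mx2. Mx1's log2 fold change was 1.08 (SE 0.304, adjusted p = 0.0449), with 4-week replicate 4 and P5 replicate 2 at the ends of the range. This call rests on every library but P5 replicate 1: without any other it was lost, with log2 fold changes of 0.869 to 1.24 and adjusted p-values of 0.0518 to 0.117. Mx2's log2 fold change was 0.22, with an approximate 95% interval of -0.25 to 0.69 (adjusted p = 0.589). Neither gene was lower by edgeR at an unadjusted p under 0.05, by DESeq2 or by limma-voom.

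IFITM proteins sit in cell membranes and hinder the fusion of viruses with them, and they gave both the highest levels and a split response. Ifitm1, which acts mostly at the cell surface, had 517, 569, 506 and 574 CPM at 4 weeks, against 307, 225, 195 and 224 CPM at P5. Ifitm3, which acts in endosomes, had 503, 594, 462 and 547 CPM at 4 weeks, against 312, 319, 309 and 294 CPM at P5. In both genes the 4-week libraries lay well above the P5 libraries, and the 4 P5 values of Ifitm3 were close together. Ifitm1's log2 fold change was 1.19 (SE 0.118, adjusted p = 1.64e-05), and that of Ifitm3 was 0.77 (SE 0.0834, adjusted p = 3.32e-05). Ifitm2 had 158, 175, 156 and 177 CPM at 4 weeks, against 186, 139.9, 152 and 149 CPM at P5. Its ages overlapped, and its log2 fold change of 0.09 had an approximate 95% interval of -0.12 to 0.29, below the intervals of Ifitm1 (0.93 to 1.44) and Ifitm3 (0.59 to 0.95). These genes are close in sequence, and 91.2%, 73.3% and 92.4% of the exon reads of Ifitm1, Ifitm2 and Ifitm3 mapped uniquely. On uniquely mapped reads the log2 fold changes were 1.18, 0.12 and 0.80. The windows of Ifitm1 (chr7:140967826-140968125, plus strand), Ifitm2 (chr7:140955912-140956211, minus strand) and Ifitm3 (chr7:141010695-141010994, minus strand) are shown because the letters do not follow the calls. Ifitm1's window holds no match, Ifitm2's holds 1 that begins 46 bases before the start, and Ifitm3's holds 2 that begin at bases 3 and 20 of the transcript.
Ifitm1: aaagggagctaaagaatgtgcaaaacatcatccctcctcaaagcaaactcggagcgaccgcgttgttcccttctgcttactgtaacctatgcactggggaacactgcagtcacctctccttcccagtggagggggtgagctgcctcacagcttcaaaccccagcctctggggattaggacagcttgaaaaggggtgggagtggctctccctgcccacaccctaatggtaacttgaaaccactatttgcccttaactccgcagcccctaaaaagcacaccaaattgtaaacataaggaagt
Ifitm2: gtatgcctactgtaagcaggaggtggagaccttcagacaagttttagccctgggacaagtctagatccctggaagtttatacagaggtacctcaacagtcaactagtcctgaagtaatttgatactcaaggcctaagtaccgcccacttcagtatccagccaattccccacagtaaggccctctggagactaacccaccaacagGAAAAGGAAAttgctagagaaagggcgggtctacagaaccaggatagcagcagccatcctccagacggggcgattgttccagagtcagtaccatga
Ifitm3: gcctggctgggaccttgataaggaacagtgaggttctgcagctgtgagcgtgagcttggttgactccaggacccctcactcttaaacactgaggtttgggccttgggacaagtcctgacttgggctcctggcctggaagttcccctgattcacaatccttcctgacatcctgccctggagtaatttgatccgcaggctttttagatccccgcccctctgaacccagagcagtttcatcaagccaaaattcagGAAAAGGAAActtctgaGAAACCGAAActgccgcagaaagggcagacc

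**Figure D3:**
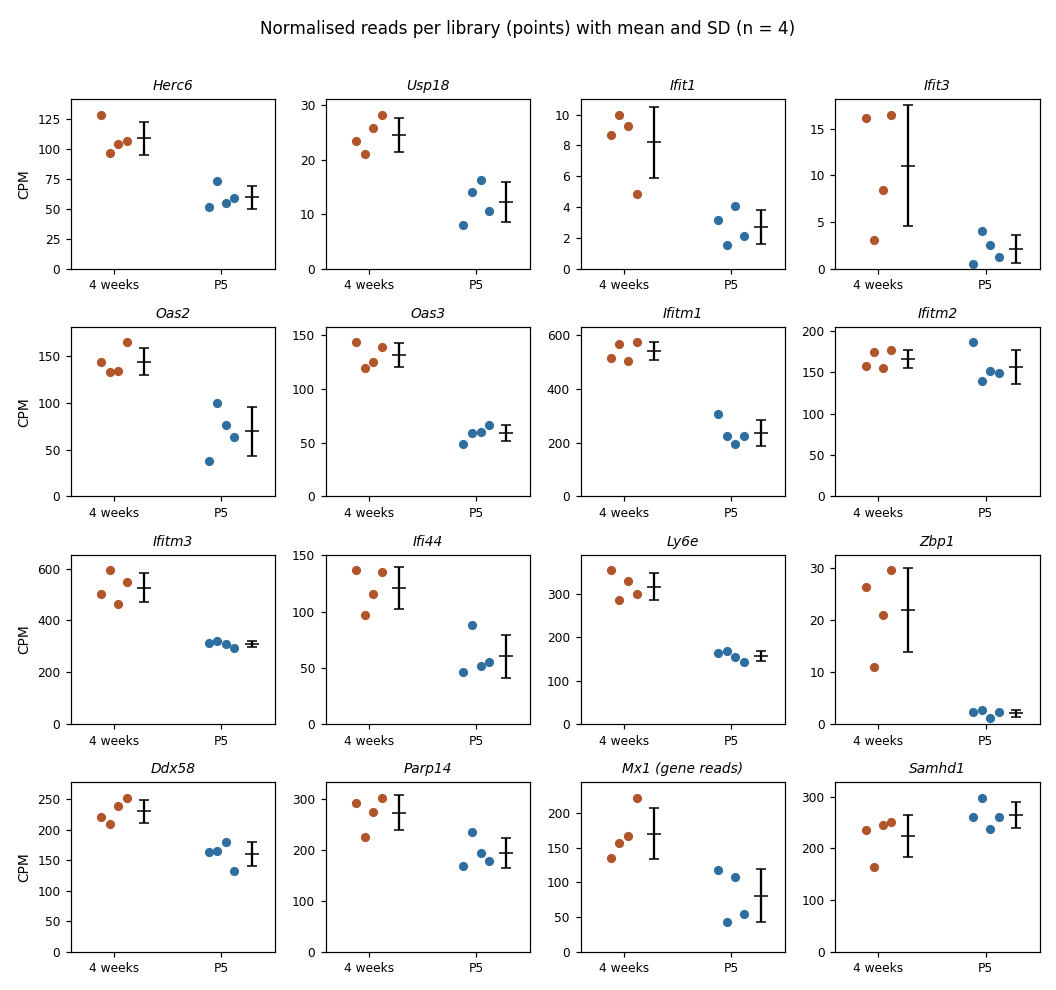
Normalised reads of 16 genes (y axis, CPM from 0; exon reads, or gene reads for Mx1) in each library at 4 weeks (left) and P5 (right); points are libraries, and the black mark and bar are the mean and SD (n = 4). Ifitm1, Ifitm3, Oas3, Ly6e and Zbp1 show a gap between the ages, while Ifit3, Ifitm2, Parp14 and Samhd1 overlap.

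Of the 12 other effectors, 6 were higher at 4 weeks, none was lower and 6 were not called. Ly6e, a membrane protein that blocks coronavirus entry, had 354, 284, 329 and 299 CPM at 4 weeks, against 164, 168, 154 and 143 CPM at P5. Ifi44, a cytoplasmic protein that slows viral replication, had 137, 97.2, 116 and 135 CPM at 4 weeks, against 45.9, 87.8, 52.0 and 55.0 CPM at P5. Neither overlapped, although P5 replicate 2 came close to 4-week replicate 2 for Ifi44. Their log2 fold changes were 1.01 each, with an SE of 0.0871 and an adjusted p of 5.23e-06 for Ly6e and an SE of 0.177 and an adjusted p of 0.00159 for Ifi44. Smaller differences were called for Sp100, a nuclear body protein that restrains viral DNA (1.45-fold), Xaf1, which promotes apoptosis (1.37-fold), Lgals3bp, a secreted glycoprotein (1.29-fold), and Trim30a, a TRIM protein that dampens Toll-like receptor signals (1.24-fold). Lgals3bp kept its call whichever library was left out. Sp100 lost it without 4-week replicate 1 (adjusted p = 0.0519), Trim30a without 4-week replicate 1 or 4 or P5 replicate 4 (up to 0.0772), and Xaf1 without 4-week replicate 3 or 4 or P5 replicate 3 or 4 (up to 0.0826).

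Genes not called in that group included well-known effectors. Rsad2, or viperin, which makes a chain-terminating nucleotide, averaged 46.0 ± 11.6 CPM at 4 weeks and 33.3 ± 10.5 at P5 (SD, n = 4 each), a log2 difference of 0.47 (adjusted p = 0.161). Rtp4, an inhibitor of flavivirus replication, averaged 85.2 ± 10.3 CPM at 4 weeks and 66.7 ± 21.7 at P5 (0.36, adjusted p = 0.218). Both passed without P5 replicate 2, with log2 fold changes of 0.70 and 0.57 and adjusted p-values of 0.0181 and 0.0202. Bst2, or tetherin, which holds budding virions at the membrane, averaged 37.1 ± 3.98 CPM at 4 weeks and 35.8 ± 7.34 at P5, with an approximate 95% interval of -0.27 to 0.38 on the log2 scale, and Ifi35, a partner of the interferon-induced protein NMI, averaged 34.0 ± 1.80 and 28.9 ± 5.98 (interval -0.08 to 0.56). Samhd1, a phosphohydrolase that depletes nucleotides needed for reverse transcription, had 235, 164, 245 and 251 CPM at 4 weeks, against 260.2, 298, 237 and 260.0 CPM at P5. It overlapped and was the gene with the most negative log2 fold change, -0.24 (interval -0.50 to 0.02, adjusted p = 0.209). Ifi27l2a, a small interferon-induced protein, averaged 3.14 ± 1.44 CPM at 4 weeks and 3.57 ± 1.35 at P5 (log2 fold change -0.18, adjusted p = 0.824). Its interval in the deposited files holds the whole of Ifi27, which lies on the opposite strand in the GENCODE annotation and averaged 51.2 ± 11.8 CPM at 4 weeks and 14.7 ± 5.73 at P5 (log2 fold change 1.81, adjusted p = 0.000259); Ifi27 is outside the 37 and was looked at after the values were seen.

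Among the 6 sensors of nucleic acid, 5 were higher at 4 weeks. Zbp1, which binds Z-form nucleic acid and triggers cell death, had 26.2, 11.03, 20.9 and 29.5 CPM at 4 weeks, against 2.32, 2.64, 1.13 and 2.26 CPM at P5. Every 4-week library was far above every P5 library, and 4-week replicate 2 was the lowest of its age. The difference was 10.4-fold (approximate 95% interval 6.28 to 17.2; log2 fold change 3.38, SE 0.337, adjusted p = 1.64e-05). The RIG-I-like receptors were higher by less. Ddx58, or RIG-I, which detects RNA with a triphosphate end, had 221, 209, 238 and 252 CPM at 4 weeks, against 163, 166, 179.5 and 133 CPM at P5. Its ages did not overlap, and its log2 fold change was 0.52 (SE 0.0973, adjusted p = 0.00242). Ifih1, or MDA5, which detects long double-stranded RNA, averaged 105 ± 8.43 CPM at 4 weeks and 75.3 ± 12.1 at P5 and was 1.39-fold higher (adjusted p = 0.0105). Dhx58, or LGP2, their regulator, averaged 66.1 ± 2.95 CPM at 4 weeks and 48.8 ± 8.72 at P5 and was 1.36-fold higher (adjusted p = 0.0282). Eif2ak2, or PKR, a kinase that halts translation on double-stranded RNA, averaged 137 ± 12.98 CPM at 4 weeks and 109.6 ± 10.9 at P5 and was 1.25-fold higher (adjusted p = 0.0348). Dhx58 lost its call without 4-week replicate 1, 3 or 4 or P5 replicate 1 or 4 (adjusted p of up to 0.0799), and Eif2ak2 without 4-week replicate 1, 3 or 4 or P5 replicate 1, 3 or 4 (up to 0.116). Adar, which edits double-stranded RNA so that it is not sensed, averaged 321 ± 17.7 CPM at 4 weeks and 289 ± 42.5 at P5, with an interval of -0.06 to 0.36 on the log2 scale. Mavs, the adaptor of RIG-I and MDA5, outside the 37 and picked after its values were seen, averaged 64.6 ± 4.04 CPM at 4 weeks and 55.5 ± 8.86 at P5 (adjusted p = 0.247).

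The ADP-ribosylation genes Parp14, Parp9 and Dtx3l lie together on chromosome 16, and PARP9 and DTX3L form a complex. Parp14, a transferase of ADP-ribose, had 290.4, 225, 274 and 301 CPM at 4 weeks, against 168, 235, 194 and 177 CPM at P5. Dtx3l, a ubiquitin ligase, had 299, 289, 293 and 311 CPM at 4 weeks, against 262, 254, 224 and 236 CPM at P5. The ages were apart for Dtx3l, while P5 replicate 2 exceeded 4-week replicate 2 for Parp14. Log2 fold changes were 0.50 for Parp14 (SE 0.115, adjusted p = 0.00925) and 0.29 for Dtx3l (SE 0.0731, adjusted p = 0.0156), and Dtx3l lost its call without 4-week replicate 4 or P5 replicate 3 (adjusted p of up to 0.0615). Parp9 averaged 93.4 ± 14.9 CPM at 4 weeks and 72.8 ± 9.66 at P5 (log2 fold change 0.36, adjusted p = 0.0713), and passed without 4-week replicate 2 or without P5 replicate 2, where its adjusted p was as low as 0.0112. Exons of Parp9 and Dtx3l share 458 bases on opposite strands. The library kit does not mark strand, so reads there cannot be assigned to either gene. The same holds where exons of Adar (1365 bases), Ifi35 (290), Eif2ak2 (221), Dhx58 (141) and Usp18 (124) overlap other genes on the opposite strand.

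Libraries of an age differed among themselves for these genes as a group. P5 replicate 2 was the highest P5 library for 25 of the 35 genes, against 30.6% of all genes tested, and its median deviation from the P5 mean of log2(CPM + 1) was 0.27, against 0.014 over all genes. At 4 weeks, replicate 2 was the lowest library for 25 of the 35 genes, against 31.5% of all genes, with a median deviation of -0.13. P5 replicate 2 also held 158 CPM of Csf1r, the receptor of macrophage growth factor, against 3.53 to 7.92 CPM in the other P5 libraries, and 64.3 CPM of Cx3cr1, a chemokine receptor of monocytes, against 0 to 1.13 CPM. Both were picked after their values were seen, from 10 markers of monocytes, macrophages and dendritic cells. Those 10 summed to 699 CPM in P5 replicate 2 and 337 to 373 in the other P5 libraries. Of them, Ly6c2 and Itgax were at 0 in P5 replicate 2. Without P5 replicate 2, 27 of the 35 genes were higher at 4 weeks (background 8.65%), 23 of them shared with the 24, and the median log2 fold change was 0.57. Without 4-week replicate 2, 24 of 35 were higher (background 7.96%). Leaving out each of the 8 libraries in turn gave 17 to 27 genes higher and none lower, with the 17 found without 4-week replicate 4 (background 6.46%) and without P5 replicate 4 (7.15%), and 15 of the 25 called genes kept their call in all 8 fits. These were Usp18, Herc6, Ifit1, Ifit3, Oas2, Oas3, Ifitm1, Ifitm3, Ifi44, Ly6e, Lgals3bp, Ifih1, Ddx58, Zbp1 and Parp14. No share over all called genes is given for that count. Whether 15 of 25 is more or less than among other called genes is therefore not known.

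**Figure D4:**
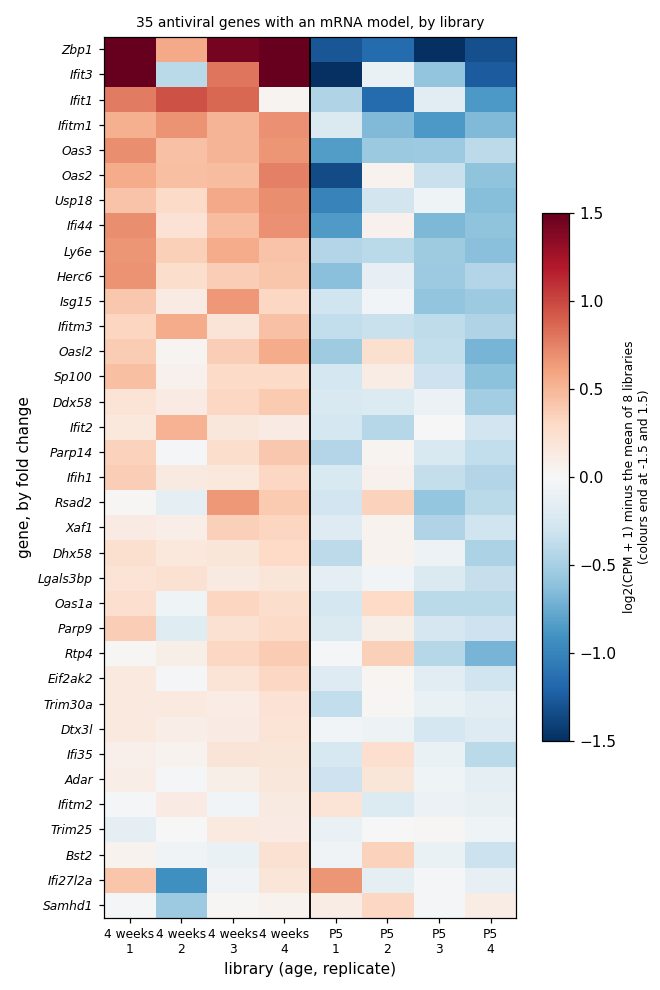
Log2(CPM + 1) of the 35 genes with an mRNA model (rows, ordered by fold change) in each library (columns, 4 weeks left of the line and P5 right), shown as the difference from the gene's mean over 8 libraries; red is above the mean, blue below, and colours end at -1.5 and 1.5. P5 replicate 2 is redder than the other P5 libraries, being the highest of them for 25 genes, against 30.6% of all genes tested.

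Presence of Y-linked reads, which split the P5 libraries 2 and 2, was entered as a covariate. Then 13 of the 35 genes were higher at 4 weeks, against 4.97% of all genes, and the median log2 fold change was 0.42. Among the 6 libraries with such reads alone, the same 13 genes were higher, against 5.07% of all genes. All 4-week libraries had such reads, so the age term of both fits rests on them and P5 replicates 2 and 4. The fits are therefore not separate results. P5 replicate 2 was the highest P5 library for 25 of the 35 genes, against 30.6% of all genes tested. Why fewer genes were called in these fits was not tested. Dhx58, Dtx3l, Eif2ak2, Ifih1, Ifit3, Isg15, Oasl2, Parp14, Sp100, Trim30a and Xaf1 lost their calls in both fits. Mx1 kept its call, with a log2 fold change of 1.82 in each.

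Reads over introns can come from unspliced RNA and were counted apart from exon reads. They give another readout of the same libraries, not an independent one, and their source was not tested. Of the 35 genes with an mRNA model, 31 had enough intron reads to test, and 10 were higher at 4 weeks and none lower, against 8.86% higher among all genes. The sign was positive in 27 of 31, with a median log2 fold change of 0.43. By both readouts 9 genes were higher: Usp18, Herc6, Oas2, Oas3, Oasl2, Ifitm1, Ifi44, Trim30a and Zbp1. No share over all genes is given for that count or for genes lower on intron reads, so neither can be weighed against other genes. Zbp1's log2 fold change was 3.42 on intron reads (SE 0.445, adjusted p = 0.000389), close to its exon value of 3.38. Ifitm1's was 2.70 (SE 0.339, adjusted p = 0.000303), against 1.19 on exon reads. Ddx58 differed by 0.20 on intron reads (adjusted p = 0.374) and Ly6e by 0.82 (adjusted p = 0.0873). Ifi27l2a was the tenth gene, at 1.47 (adjusted p = 0.00378), and its interval holds Ifi27 as described above.

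**Figure D5:**
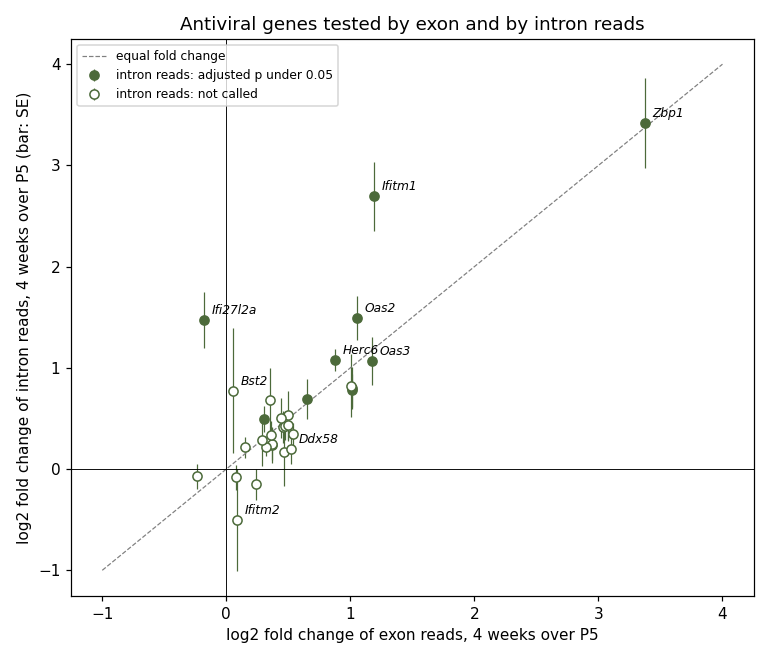
Log2 fold change of 4 weeks over P5 by exon reads (x axis) and by intron reads (y axis, bar SE) for the 31 genes tested on both; filled points have an adjusted p under 0.05 on intron reads, and the dashed line marks equal values. Zbp1 lies near the line at 3.38 and 3.42, and Ifitm1 and Ifi27l2a lie above it.

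A wider list of 81 genes of antiviral sensing and restriction, also chosen with earlier results of these data known, was set beside these. Of its 70 tested genes, 25 were higher at 4 weeks and 1 lower, with a median log2 fold change of 0.27; over all genes with an mRNA model, 8.55% were higher and 7.99% lower. Among signalling adaptors and kinases, such as Mavs, Tbk1 and Irf3, 0 of 12 were called by edgeR, with 1 higher and 1 lower at an unadjusted p under 0.05, and 0 by DESeq2 or limma-voom. Restriction factors and effectors gave 22 higher of 45, none lower; among the 44 with an mRNA model, 1 was lower at an unadjusted p under 0.05 and 0 by DESeq2 or limma-voom. Among AIM2-like and other sensors, 3 of 11 were higher, a count that includes Nod1, which is not listed for sensing viral nucleic acid. Nod1, a sensor of bacterial peptidoglycan, averaged 52.2 ± 6.88 CPM at 4 weeks and 21.6 ± 3.68 at P5 and was 2.41-fold higher (adjusted p = 5.98e-05). Trim12c, a TRIM protein related to TRIM5, averaged 127 ± 11.5 CPM at 4 weeks and 81.8 ± 9.47 at P5 and was 1.56-fold higher (adjusted p = 0.000727). Tlr9, a receptor for unmethylated DNA, was the lower gene, with 0.629 ± 0.597 CPM at 4 weeks and 6.03 ± 6.50 at P5 (SD, n = 4 each), a log2 difference of -3.27 (adjusted p = 0.0134). P5 replicate 2 held 15.7 CPM of Tlr9, and without that library the log2 fold change was -2.18 (adjusted p = 0.0441).

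Markers of other blood and marrow cells were set beside these results. The 10 markers of monocytes, macrophages and dendritic cells, of which 6 were tested and 4 were lower at 4 weeks, summed to 226 to 289 CPM at 4 weeks and 337 to 699 at P5, led by Lyz2, with 158 ± 7.46 CPM at 4 weeks and 172 ± 15.2 at P5. Plasmacytoid dendritic cells are known as strong producers of interferon. Their 7 markers, of which 3 were tested and 1 was lower, summed to 229 to 243 CPM at 4 weeks and 228 to 254 at P5, nearly all from Tcf4 (216 ± 7.81 and 205 ± 3.44), with Ly6d and Cox6a2 at 0 in all 8 libraries. Erythroid markers (1 of 2 tested lower) summed to 85.3 to 131 CPM at 4 weeks and 574 to 906 at P5, led by Hbb-bt (96.8 ± 21.0 and 710.01 ± 151), with Alas2 at 0. Endothelial markers (3 of 6 tested lower) summed to 235 to 298 CPM at 4 weeks and 325 to 425 at P5, led over both ages by Pecam1 (112 ± 16.1 and 140.1 ± 19.2) and at P5 by Tek (96.3 ± 10.9 and 151 ± 12.7), and B-cell markers, of which the only 1 tested was lower, to 20.9 to 26.1 and 34.5 to 51.7, led by Cd79b (21.5 ± 1.65 and 39.3 ± 8.12), with Ms4a1 at 0. T and NK cell markers (1 of 3 tested higher and 1 lower) summed to 16.0 to 26.5 CPM at 4 weeks and 19.7 to 31.7 at P5, led over both ages by Cd4 (6.09 ± 1.30 and 15.6 ± 3.87), the lower gene, and at 4 weeks by Nkg7 (9.02 ± 2.66 and 2.08 ± 0.804), the higher gene (4.28-fold, adjusted p = 0.00121), with Cd3e, Cd3g, Ncr1 and Gzma at 0. Neutrophil markers (1 of 4 tested higher and 2 lower) summed to 27.9 to 36.7 and 27.2 to 46.3, led by Prtn3 (25.5 ± 4.37 and 25.8 ± 6.11), and megakaryocyte and platelet markers (1 of 5 tested higher and 1 lower) to 319 to 419 and 293 to 404, led by Vwf (302 ± 44.7 and 269 ± 41.1). Stromal markers summed to 12.4 to 83.7 at 4 weeks and 12.6 to 32.3 at P5, with 50.4 CPM of Cxcl12 in 4-week replicate 4 and at most 0.862 elsewhere. Of the 3 stromal markers tested, Pdgfrb was higher (10.9 ± 3.02 and 3.32 ± 0.342), and Col1a2, the leading marker over both ages, averaged 7.87 ± 3.76 at 4 weeks and 14.5 ± 8.45 at P5. Without 4-week replicate 4, 17 of the 35 antiviral genes were higher at 4 weeks, against 6.46% of all genes. Leaving out P5 replicate 4 instead also gave 17, against 7.15% of all genes. The part of these markers in the antiviral genes' differences was not tested.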

How the data were processed

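For each library the authors deposited a table of 48835 gene rows with raw read counts (total and unique) over exons, introns and whole genes. Per the submitters' processing notes, the build was mm10. No aligner, counter or annotation is named (not given in the sources used here). Libraries came from 100 sorted cells and a Nextera XT kit, per the labels' protocols; that kit does not mark strand, so opposite-strand overlaps cannot be resolved. The reads carry no molecular identifiers.

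Total exon reads were used for the 23457 rows with an mRNA model, and gene reads for the 25378 rows with exon length 0 (Mx1, Mx2 and Oas1b among them), in a fit of their own. Numbered copies were summed, leaving 22050 and 24422 genes, and 24 names turned into dates in the file of P5 replicate 4 were restored. Of the 37 genes, Trim25 alone had 2 copies. The test was edgeR's (version 4.0.16, R 4.3.3; TMM, filterByExpr, quasi-likelihood, age alone, all 8 libraries, Benjamini-Hochberg over 12235 and 2815 genes, which held 99.8% and 99.2% of reads, threshold 0.05). The common biological coefficient of variation was 0.152 and 0.361. CPM values are normalised to TMM library sizes, and standard errors and 95% intervals are approximations from the F statistic. Replicates of an age differed by more than counting noise (chi-square per degree of freedom 4.38 to 14.4), so none was a library deposited more than once. The script was tested on simulated data.

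Other settings tried were each library left out, a block for replicate number, no filter or at least 5 CPM in 4 libraries, DESeq2 size factors, DESeq2 1.42.0, limma-voom (limma 3.58.1), unique exon reads, gene reads, intron reads, Y-linked reads (over 100) as a covariate or as a condition on libraries, and copies not summed. Named with values in every library were the 2 genes of each role with the smallest p and the most abundant gene per length. Other genes named by rule were the smallest p-values of the wider list in each direction, the gate and the leading marker of each cell type. Ifitm2 and Samhd1 were given in full after their values were seen. Outside the rule, Ly6a, Fgd5, Mllt3, Mecom, Csf1r, Cx3cr1, Nkg7, Tek, Pdgfrb, Cxcl12, Uba7, Mavs and Ifi27 were also named after values were seen. The 37 genes and the lists were chosen with earlier results of these data known. Gene positions and promoter windows come from RefSeq on GRCm38.p6, the assembly of mm10.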

Additional observations from a re-analysis of the deposited data

Results flagged for a closer look

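In groups of 4 libraries, a library far from the other 3 was found in 3 of 74 groups (37 genes at 2 ages), where chance gives about 1 in 20. Ifit2 had 47.2 CPM in 4-week replicate 2, against 35.7 to 36.9 CPM in the other 4-week libraries. Oas1a had 90.3 CPM in P5 replicate 2, against 55.1 to 60.8 CPM in the other P5 libraries. Ifi27l2a had 5.59 CPM in P5 replicate 1, against 2.80 to 3.07 CPM in the other P5 libraries. Without those libraries the adjusted p of Ifit2 rose past 0.05, Oas1a passed the threshold, and the log2 fold change of Ifi27l2a was 0.13.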

How the results depend on the processing

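Every alternative except intron reads, the replicate block and the 2 Y-linked settings left the count of antiviral genes higher at 4 weeks within 1.5 times of 24, and none gave a gene lower. The counts were 14 with the replicate block (against 5.91% of all genes), 13 with Y-linked reads as a covariate, 13 in libraries with Y-linked reads and 10 of 31 on intron reads. Of the 25 called genes, 9 kept the call in every alternative run on them and 12 in every one but intron reads. These counts, too, stand without a share over all called genes. Intron reads tested fewer genes and the Y-linked libraries were 6 of 8; beyond that the cause was not tested.

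Over all genes, 577 were lower with the replicate block, against 977, and with Y-linked reads as a covariate 608 were higher and 628 lower, against 638 and 619 in libraries with such reads. In the wider list 14 were higher under each Y-linked setting, and 0 were lower with the 5 CPM filter, 2 on gene reads and 2 on intron reads. Leaving out a library gave 1 to 2 lower in that list and log2 fold changes of 0.87 to 1.34 for Mx1 (adjusted p up to 0.117), -0.039 to 0.20 for Bst2 and -0.41 to 0.13 for Ifi27l2a. Uncalled genes changed sign as follows. On gene reads Trim25 was -0.0044, Ifitm2 -0.022 and Ifi27l2a 1.34. On intron reads Trim25 was -0.080, Ifitm2 -0.50, Ifi35 -0.15 and Ifi27l2a 1.47. Under the Y-linked covariate and in the libraries with such reads Bst2 was -0.0054 and -0.0053, and Ifi27l2a 0.17 in each.

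With the replicate number as a block, Mx1 was 1.18 (adjusted p = 0.0654). The numbers are not stated to pair samples, and same-numbered libraries did not deviate together (correlations of -0.24 to -0.03 in 4 pairs). Low counts limit the scarce transcripts: Ifit1 and Ifit3 fell under the 5 CPM filter, and Isg15 lost its call with no filter.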
